A study of Mus musculus with 9 samples.

Results

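A high-fat diet (HFD) given for 16 weeks was compared with a normal diet (ND) in epididymal fat, the visceral depot beside the epididymis of male mice. The comparison used 6 of the 9 arrays of the study, 3 of HFD and 3 of ND mice, and it was read over 8699 named genes. The HFD mice received a diet with 20% fat and 1% cholesterol by the sample labels, while the methods give the fat as a share of energy and another number of mice. The ND mice received AIN-76, a purified rodent diet that all mice had also eaten before the experiment. The mice were C57BL/6J males, a strain in common use for diet-induced obesity, which arrived at 4 weeks of age and were housed singly. The labels give 10 mice per group, and the methods describe pooled RNA for the arrays without saying how many mice a pool held. Nothing says that the arrays of a diet came from separate mice, so the p-values may reflect technical spread alone. The remaining 3 arrays came from mice on the HFD with 0.005% luteolin (LU) and served the common estimate of the spread.

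White fat stores triacylglycerol in large adipocytes and also holds macrophages, fibroblasts, vessels and a mesothelial covering. In obesity the adipocytes enlarge, macrophages gather around dying cells and take up lipid into their lysosomes, and the matrix thickens. Adipocytes also burn branched-chain amino acids in their mitochondria, take up glucose in response to insulin, and secrete hormones such as leptin. The RNA came from whole tissue, so that fewer cells of a type and less RNA per cell cannot be told apart.

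Signals were quantile-normalized and expressed on the log2 scale, on which a difference of 1 is a change by a factor of 2. All differences below are HFD minus ND. The number of arrays limits their precision, and the median standard error of a gene was 0.06 on this scale. Arrays of the same diet correlated at 0.994 to 0.997 over the probes, and HFD arrays correlated with ND arrays at 0.973 to 0.985. The raw signals had medians of 209.4 to 215.8 in HFD and 193.7 to 206.9 in ND, which did not overlap. Its part in the results was not tested beyond another scaling of the arrays. Of 13 genes of the epididymis 3 were measured and none was called. Adam7, a gene of that epithelium, stood at 9.30 on the array of HFD replicate 1, against 7.62 and 7.78 on the other HFD arrays and 7.76, 8.06 and 8.17 in ND, and its part in the results was not tested. No germ cell gene of the testis was measured.

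Over all genes the diet moved many transcripts by a small amount and a few by a large one. By limma, with Benjamini-Hochberg adjustment over the probes kept, 2188 genes were higher and 2410 lower in HFD at an adjusted p under 0.05. These are 25.2% and 27.7% of the genes, or 52.9% in both directions. The share is lower over all 20558 probes kept, of which 37.3% differed, and it was 6.15% of the probes outside the table that the authors had normalized. Gene names were given only for probes of that table, so the named genes hold more differing probes than the array does. The HFD and ND arrays did not overlap for 60.3% of the genes. Rises were larger than falls at the far end. A change of at least 2-fold was reached by 231 genes that rose and by 47 that fell, and of at least 4-fold by 31 and 3 genes. The median size of a called difference was 0.32 on the log2 scale.

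**Figure D1:**
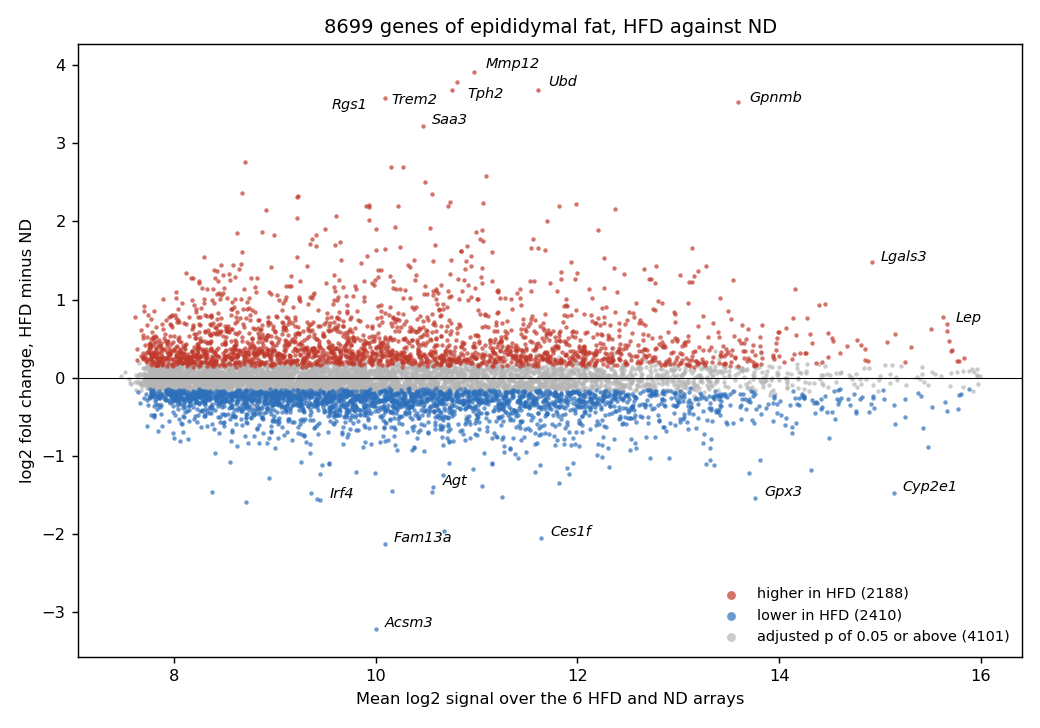
Each point is a gene, with its mean log2 signal over the 6 HFD and ND arrays on the x axis and its log2 fold change, HFD minus ND, on the y axis. Red points (2188 genes) were higher and blue points (2410 genes) lower at an adjusted p under 0.05, and the red points reach 3.91 while the blue points reach -3.21.

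The largest rises were genes of lipid-laden macrophages, together with a gene of serotonin synthesis. Mmp12, a macrophage elastase, had log2 signals of 13.10, 13.07 and 12.64 on the HFD arrays, against 9.11, 8.79 and 9.17 on the ND arrays. This is a 15.1-fold difference (log2 fold change 3.91, SE 0.13, adjusted p = 4e-09). Trem2, the lipid-sensing receptor of such macrophages, had signals of 12.83, 12.69 and 12.29 in HFD and 9.13, 8.95 and 8.68 in ND, a 12.8-fold difference. All HFD arrays lay above all ND arrays for both genes. Gpnmb, a glycoprotein of macrophage lysosomes, reached 15.57, 15.43 and 15.06 in HFD, against 11.90, 11.99 and 11.60 in ND, and was among the brightest signals of the HFD tissue.

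Tph2, the tryptophan hydroxylase that starts serotonin synthesis in neurons, was the gene with the second largest rise. Its signals were 12.62, 13.13 and 12.33 in HFD, against 9.11, 8.13 and 9.48 in ND (log2 fold change 3.79, SE 0.27, adjusted p = 4e-07). The ND arrays spread more widely for this gene than for Mmp12 or Trem2, with an SD of 0.69, and still did not overlap with the HFD arrays. Slc5a7, the choline transporter of cholinergic neurons, showed a similar layout, with 11.84, 12.11 and 11.83 in HFD and 10.18, 9.44 and 10.55 in ND. ND replicate 2 was the lowest array for both. Ubd, a ubiquitin-like modifier induced by inflammatory cytokines, had signals of 13.47, 13.64 and 13.23 in HFD, against 9.99, 9.33 and 9.97 in ND, a 12.8-fold difference.

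The other large rises belonged mostly to leukocytes. Rgs1, a brake on chemokine receptor signaling in leukocytes, rose 12.0-fold, with 12.08, 11.98 and 11.60 in HFD and 8.20, 8.43 and 8.28 in ND. Il7r, a cytokine receptor subunit of lymphocytes, rose 6.47-fold, Lat2, a membrane adaptor of myeloid and B cells, 5.98-fold, and Arhgap25, a Rac regulator of blood cells, 5.65-fold. Slc37a2, a sugar phosphate exchanger of macrophages, rose 4.95-fold, Cd84, an adhesion receptor of leukocytes, 4.77-fold, and Tlr13, a sensor of bacterial ribosomal RNA, rose by 2.32 on the log2 scale. The acute-phase gene Saa3 rose 9.36-fold. Less usual members of this group were Zranb3, a DNA translocase that remodels stalled replication forks, at 6.48-fold, and Lipf, the gastric lipase, at 5.10-fold. Lipf had signals of 11.71, 11.91 and 11.57 in HFD and 9.69, 8.91 and 9.54 in ND, so that its arrays were clearly apart. HFD replicate 3 was the lowest HFD array for all of the 15 largest rises. Leaving it out gave 2016 genes higher and 2177 lower, which is close to the counts with all arrays.

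Some genes were above background only in the HFD tissue, which allows only a lower bound on the fold change. In all 136 genes were called higher without being above background on any ND array. Itgad, an integrin of tissue macrophages, was at least 4.86-fold higher, with signals of 10.36, 10.10 and 9.80 in HFD and background values of 7.38, 7.29 and 7.33 in ND. Vsig8, a membrane protein of the immunoglobulin family, was at least 4.16-fold higher, Il1rn, the natural antagonist of the interleukin-1 receptor, at least 3.37-fold, and Gdf3, a growth factor of the TGF-beta family, at least 2.60-fold. H2-M2, a nonclassical MHC class I gene, and Cdkl4, a protein kinase, were at least 2.46-fold and 2.43-fold higher.

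**Figure D2:**
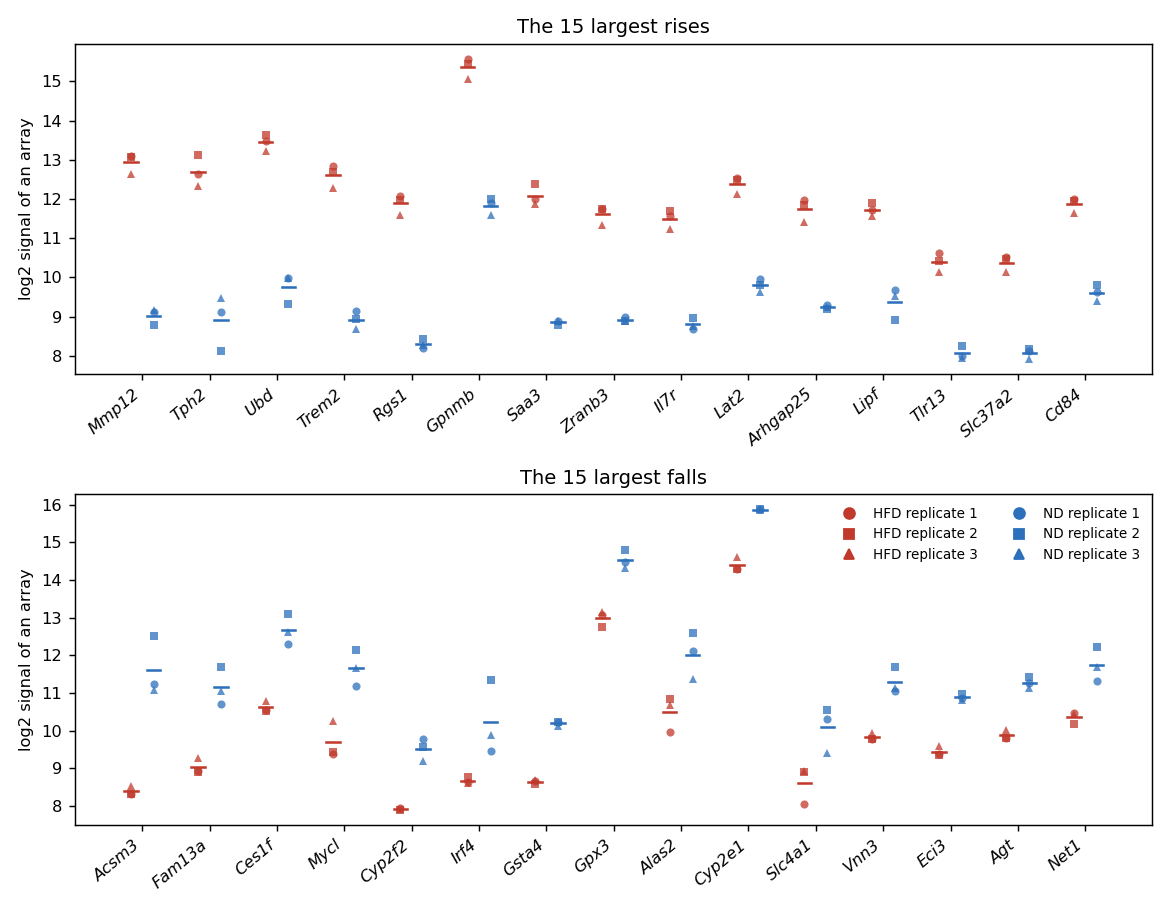
Log2 signal of each array (y axis) for the 15 largest rises (upper panel) and the 15 largest falls (lower panel), with HFD in red left of ND in blue, a symbol for each replicate and a bar for the group mean. HFD and ND arrays do not overlap for any of these genes, and HFD replicate 3 is the lowest HFD array in each of the rises.

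The largest falls were genes of adipocyte metabolism and of red cells. Acsm3, a mitochondrial enzyme that activates medium-chain fatty acids, had signals of 8.31, 8.33 and 8.54 in HFD, against 11.23, 12.51 and 11.07 in ND. It fell by 3.21 on the log2 scale (SE 0.27, adjusted p = 1.6e-06). Fam13a, linked to fat distribution by human genetics, had signals of 8.92, 8.89 and 9.27 in HFD and 10.71, 11.69 and 11.06 in ND. Ces1f, a carboxylesterase, had 10.53, 10.53 and 10.78 in HFD, against 12.29, 13.09 and 12.62 in ND, and Mycl, a transcription factor of the MYC family, fell by 1.97. The ND arrays were the more variable group here, and ND replicate 2 was the highest ND array in 12 of the 15 largest falls. It was farthest apart for Irf4, a transcription factor that drives lipolytic genes in mouse adipocytes, which had 8.63, 8.76 and 8.61 in HFD and 9.46, 11.34 and 9.89 in ND (log2 fold change -1.57, SE 0.33, adjusted p = 0.0022). Without ND replicate 2 the counts over all genes were 1987 higher and 2246 lower.

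Several of the largest falls were enzymes, although the families they belong to did not all fall. Of 17 cytochromes P450 5 were higher (29.4%) and 6 lower (35.3%). Of 21 antioxidant enzymes 7 were higher and 7 lower (33.3% each). Of 18 aldehyde and alcohol dehydrogenases 7 were higher and 7 lower (38.9% each). Over all genes the shares were 25.2% higher and 27.7% lower. Gpx3, the secreted glutathione peroxidase, had signals of 13.08, 12.75 and 13.14 in HFD, against 14.49, 14.79 and 14.31 in ND. Gsta4, which conjugates products of lipid peroxidation to glutathione, had 8.67, 8.57 and 8.68 in HFD and 10.24, 10.23 and 10.12 in ND, with little spread in either group. Cyp2e1, an abundant cytochrome P450 of fat cells, had 14.29, 14.28 and 14.61 in HFD and 15.87 on each ND array. These ND values stood near the highest signal of any array (16.06), so that no exact difference is given and their small spread may be compression. Cyp2f2, another P450, fell by 1.59, Vnn3, a pantetheinase, by 1.47, and Eci3, an enoyl-CoA isomerase of fatty acid oxidation, by 1.45. Agt, the precursor of angiotensin, had 9.79, 9.81 and 10.01 in HFD and 11.26, 11.42 and 11.13 in ND, and Net1, an activator of RhoA, fell by 1.38. Pon1, a paraoxonase known from liver and plasma lipoproteins, was not above background on any HFD array and was at least 2.48-fold lower. Among 45 genes called lower with all HFD arrays at background, the next bounds were 1.59-fold for Rnase2a, a ribonuclease of eosinophils, and 1.56-fold for Mup3, a major urinary protein.

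Red cell genes moved with these falls. Alas2, which starts heme synthesis in red cell precursors, had signals of 9.97, 10.84 and 10.68 in HFD, against 12.10, 12.59 and 11.36 in ND. Slc4a1, the anion exchanger of the red cell membrane, had 8.04, 8.91 and 8.91 in HFD and 10.31, 10.55 and 9.40 in ND. The mean level of 6 red cell genes was 9.45 to 9.97 in HFD and 10.20 to 10.66 in ND, and 5 of the 6 were lower, at a median of -0.55. Without ND replicate 3, the lowest ND array for both genes, 3 were lower. The amount of blood left in the tissue was not measured, and its part in other differences was not tested.

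The 100 brightest genes, of which 22 were higher and 31 lower, were called about as often as all genes (52.9%). Lgals3, a galectin of phagocytic macrophages, had 15.77, 15.62 and 15.57 in HFD, against 14.23, 14.08 and 14.23 in ND, a 2.78-fold difference. Lep, the leptin gene, had 16.01, 16.00 and 16.00 in HFD and 15.44, 15.05 and 15.47 in ND, and Hp, which encodes the hemoglobin-binding haptoglobin, had 16.02, 16.02 and 15.99 in HFD and 15.35, 15.18 and 15.17 in ND. The highest signal of any array was 16.06, so that these HFD values stood at the top of the scale and no exact difference is given for them. The same holds for Mfge8, a bridge between dying cells and phagocytes, with 15.95, 15.94 and 16.02 in HFD and 15.39, 15.31 and 15.40 in ND. Psap, the precursor of the saposins of lysosomes, rose by 0.62 and Sparc, a collagen-binding matrix protein, by 0.56. In the other direction Ces1d, a triacylglycerol hydrolase of fat cells, had 15.09, 14.83 and 15.18 in HFD and 15.91, 15.91 and 15.95 in ND. Here the ND values stood near the top of the scale. Car3, a carbonic anhydrase of adipocytes, fell by 0.64, Aldh2, the mitochondrial aldehyde dehydrogenase, by 0.59, Inmt, a methyltransferase, by 0.50, and Hibadh, an enzyme of valine breakdown, by 0.45. The HFD values of Lgals3 and of Psap (15.87, 15.83 and 15.74) also stood near the top of the scale. So did the ND values of Car3 (15.69, 15.74 and 15.81), and the differences given for these genes may be compressed.

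Macrophage genes rose unevenly. Of 17 measured macrophage markers 16 were higher and none lower, at a median of 0.94, against a median of -0.03 over all genes. Ms4a7 and Mpeg1, a membrane protein and a pore-forming protein of macrophages, both rose by 1.89, Adgre1, the F4/80 antigen, by 1.66, while Cd14, a co-receptor for endotoxin, differed by 0.14 and was not called. Of 12 genes of lipid-associated macrophages 11 were higher, at a median of 1.35, and 2 of the 12 were not above background on any ND array. Ctsk, a collagen-degrading cathepsin, rose by 2.20 and Lipa, the lysosomal acid lipase, by 1.66, and the exception was Apoe, the lipoprotein that adipocytes also make, which fell by 0.33. Genes of resident tissue macrophages were more often lower instead. Of 18 measured, 4 were higher (22.2%, below the 25.2% over all genes) and 9 lower (50.0%, against 27.7%), at a median of -0.23. Vsig4, a complement receptor, rose by 1.06 and Folr2, a folate receptor, by 0.57, while Retnla, a secreted product of alternatively activated macrophages, fell by 0.71, the lectin Cd209b by 0.63, and Cd163, the scavenger receptor for hemoglobin and haptoglobin, by 0.54. The mean level of the macrophage markers was 11.59 to 11.76 in HFD and 10.59 to 10.76 in ND. Its part in the other rises was not tested.

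Genes of other leukocytes were few. The T cell antigen receptor genes Cd3d, Cd3e and Cd3g differed by -0.01, 0.04 and 0.15, none of them called. Of 6 measured T cell markers 3 were higher (50.0%, against 25.2% over all genes) and none lower. Foxp3, the factor of regulatory T cells, and Cd8b1, a co-receptor of cytotoxic T cells, both rose by 0.42. The third was Cd6, which rose by 0.41 at a low signal, 8.29 in HFD and 7.89 in ND. In HFD, Foxp3 and Cd8b1 averaged 10.69 and 12.81, against 8.37, 8.57 and 8.49 for Cd3d, Cd3e and Cd3g. Whether the Foxp3 and Cd8b1 signals came from T cells was not tested. Blnk, an adaptor of B cells that macrophages also use, rose by 1.42. Of 9 measured mast cell genes 1 was higher (11.1%, below the 25.2% over all genes), the granule protease Cpa3, which rose by 0.41. S100a8, a calcium-binding protein of neutrophils, had 11.42, 11.76 and 11.14 in HFD and 10.20, 9.11 and 9.91 in ND. The neutrophil protease Elane differed by -0.10 and was not called, but it stood near background, at 7.89 in HFD and 7.99 in ND.

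Genes of phagocyte signaling and of the phagocyte oxidase were higher with few exceptions. Of 20 genes of leukocyte signaling and cytoskeleton 19 were higher, at a median of 0.87, and 1 of the 20 was not above background on any ND array. They included the activating Fc receptor Fcgr4 at 1.67 and the actin-bundling protein Lcp1 at 1.65, while the inhibitory Fc receptor Fcgr2b differed by 0.05 and was not called. All of 4 measured subunits of the phagocyte NADPH oxidase were higher, led by the membrane subunit Cyba at 1.54 and the cytosolic subunit Ncf4 at 1.21. Of 9 genes of MHC class II presentation 8 were higher, with H2-DMb1, a subunit of the peptide exchanger, at 1.24. Of 10 interferon-stimulated genes 2 were higher (20.0%, below the 25.2% over all genes), Oasl2 by 0.48 and Ifit2 by 0.25, and the median was 0.06. The count was 1 with median scaling, without HFD replicate 1 and without ND replicate 3. Of 14 eicosanoid genes 7 were higher (50.0%) and 4 lower (28.6%, near the 27.7% over all genes). Hpgds, the prostaglandin D synthase of immune cells, rose by 1.82 and Tbxas1, thromboxane synthase, by 1.25, while Ptges, a prostaglandin E synthase, fell by 0.62. Of 14 complement genes 8 were higher (57.1%, against 25.2% over all genes) and 2 lower (14.3%, below 27.7%). Those that fell were C2, a classical pathway protease, by 0.90, and C6, a pore component, by 0.65.

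Lysosome genes were mostly higher, the hydrolases as well as the proton pump. Of 12 cathepsins 10 were higher, led by Ctsk and by Ctss, the cathepsin of antigen presentation, at 1.90, and Ctsf fell by 0.30. Of 26 other lysosomal hydrolases and membrane proteins 16 were higher and 2 lower, at a median of 0.36. Lgmn, the asparagine-specific protease, had 13.58, 13.51 and 13.38 in HFD, against 12.12, 12.21 and 11.86 in ND, and Gusb, the beta-glucuronidase, rose by 1.26. Of 12 subunits of the proton pump that acidifies the lysosome 9 were higher and none lower. With median scaling 6 were higher, and leaving out single HFD or ND arrays gave 6 to 8. The subunits Atp6v0a1, Atp6v1a and Atp6v1b2 rose by 0.98, 0.86 and 0.84, and Atp6v0d1 differed by 0.12 and was not called. Nceh1, which hydrolyses cholesteryl esters in macrophages, averaged 13.10 ± 0.19 in HFD and 10.87 ± 0.13 in ND (SD, n = 3 each), with no overlap. By contrast, of 14 autophagy genes 1 was higher (7.14%) and 3 lower (21.4%, against 27.7% over all genes), with the initiating kinase Ulk1 at -0.45.

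Genes of DNA replication and mitosis were low in signal and rose together. Of 37 listed genes 26 were measured, and 25 of these were higher and none lower, at a median of 0.65. The count was 25 without each of the HFD and ND arrays in turn. Not above background on any ND array were 4 of the 26. They were kept through detection on HFD or LU arrays, so that a fall could not show in them. Prc1, which bundles microtubules between separating chromosomes, had 10.40, 10.57 and 10.25 in HFD, against 8.87, 8.97 and 8.85 in ND, a 2.84-fold difference. Kif22, a chromosome-binding kinesin, had 9.78, 9.73 and 9.58 in HFD and 8.68, 8.45 and 8.43 in ND. Mcm5, a subunit of the replicative helicase, rose by 1.11, while Mcm7 of the same complex differed by 0.05 and was not called. Mcm7 averaged 7.86 in HFD and 7.82 in ND, near the lowest detected signals of these arrays (7.78 to 7.82), where a change could hardly show. Tk1, thymidine kinase, was not above background on any ND array and had 9.06, 9.23 and 8.86 in HFD. The mean level of the list was 9.04 to 9.19 in HFD and 8.38 to 8.49 in ND, so that the groups did not overlap. Which cells carried these transcripts cannot be read from whole tissue.

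Promoters of these genes are shown because their members moved together and because such genes are known to share the CCAAT box and a cell cycle element with the letters TTTGAA. The sequences are the 120 bases before the gene start in RefSeq (GRCm38.p6), read 5′ to 3′ on the gene's own strand, with CCAAT and TTTGAA in capitals on either strand (ATTGG and TTCAAA on the other). They are the 3 members with the largest rise that hold both. Kif22 lies at chr7:127042421-127042540, Top2a, the topoisomerase that untangles chromosomes, at chr11:99024190-99024309, and Cdk1, the kinase that starts mitosis, at chr10:69352913-69353032, all on the minus strand.
Kif22: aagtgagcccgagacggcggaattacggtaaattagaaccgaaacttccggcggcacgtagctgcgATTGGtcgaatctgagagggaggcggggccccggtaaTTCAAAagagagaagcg
Top2a: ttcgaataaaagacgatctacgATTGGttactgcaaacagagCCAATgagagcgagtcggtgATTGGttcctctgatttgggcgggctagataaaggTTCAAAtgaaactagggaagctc
Cdk1: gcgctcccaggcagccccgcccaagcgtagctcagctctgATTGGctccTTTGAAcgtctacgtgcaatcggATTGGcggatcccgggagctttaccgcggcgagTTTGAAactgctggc
Of the replication and mitosis genes 21 had a promoter in RefSeq, and within 250 bases before the start 17 of these held CCAAT (81.0%) and 6 held TTTGAA (28.6%). Over 7033 measured genes with a promoter the shares were 36.4% and 10.6%. The leukocyte signaling genes, with a median of 0.87, held CCAAT in 0 of 19 promoters. In the same window GAGGAAGT, a site of the myeloid factor PU.1, stood before 3 of these 19 genes and before 17 of 182 genes that rose at least 2-fold (9.34%), against 2.47% over all. Matches were counted on both strands and 11 motifs were searched, chosen with the values known. A match to these letters is a description of the sequence, and its share in the whole set stands beside it.

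Collagens and their processing enzymes were higher. Of 23 measured collagens 14 were higher and none lower, at a median of 0.40. Col3a1, a fibrillar collagen, had 11.79, 11.82 and 11.64 in HFD, against 10.58, 10.18 and 10.28 in ND, a 2.64-fold difference, and Col16a1, which associates with fibrils, rose by 1.21 and Col1a1 by 1.02. Of 13 enzymes and chaperones of collagen processing 8 were higher and none lower, among them Pcolce, an enhancer of procollagen cleavage, at 0.62. The count was 5 with median scaling, without HFD replicate 1 and without HFD replicate 2. Lum, a small proteoglycan of collagen fibrils, rose by 1.14, and Fbln2 and Mgp, matrix proteins of elastic fibres and of calcification control, rose by 0.84 and 0.80. They belong to 26 matrix glycoproteins and proteoglycans, of which 13 were higher and 2 lower, and in this list Fmod, a related proteoglycan, fell by 0.39. Of 13 basement membrane genes 6 were higher (46.2%, against 25.2% over all genes) and 2 lower (15.4%, below 27.7%), and the laminin Lama4 fell by 0.57. The inhibitors of matrix proteases differed in direction, since Timp1 rose by 1.82 while Timp3 and Timp4 fell by 0.46 and 0.78. Of 11 serpins 10 were higher and none lower, and the median was 0.38. Ccn5, a matricellular target of Wnt signaling, had 13.46, 13.36 and 13.53 in HFD and 11.73, 10.73 and 11.43 in ND.

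**Figure D3:**
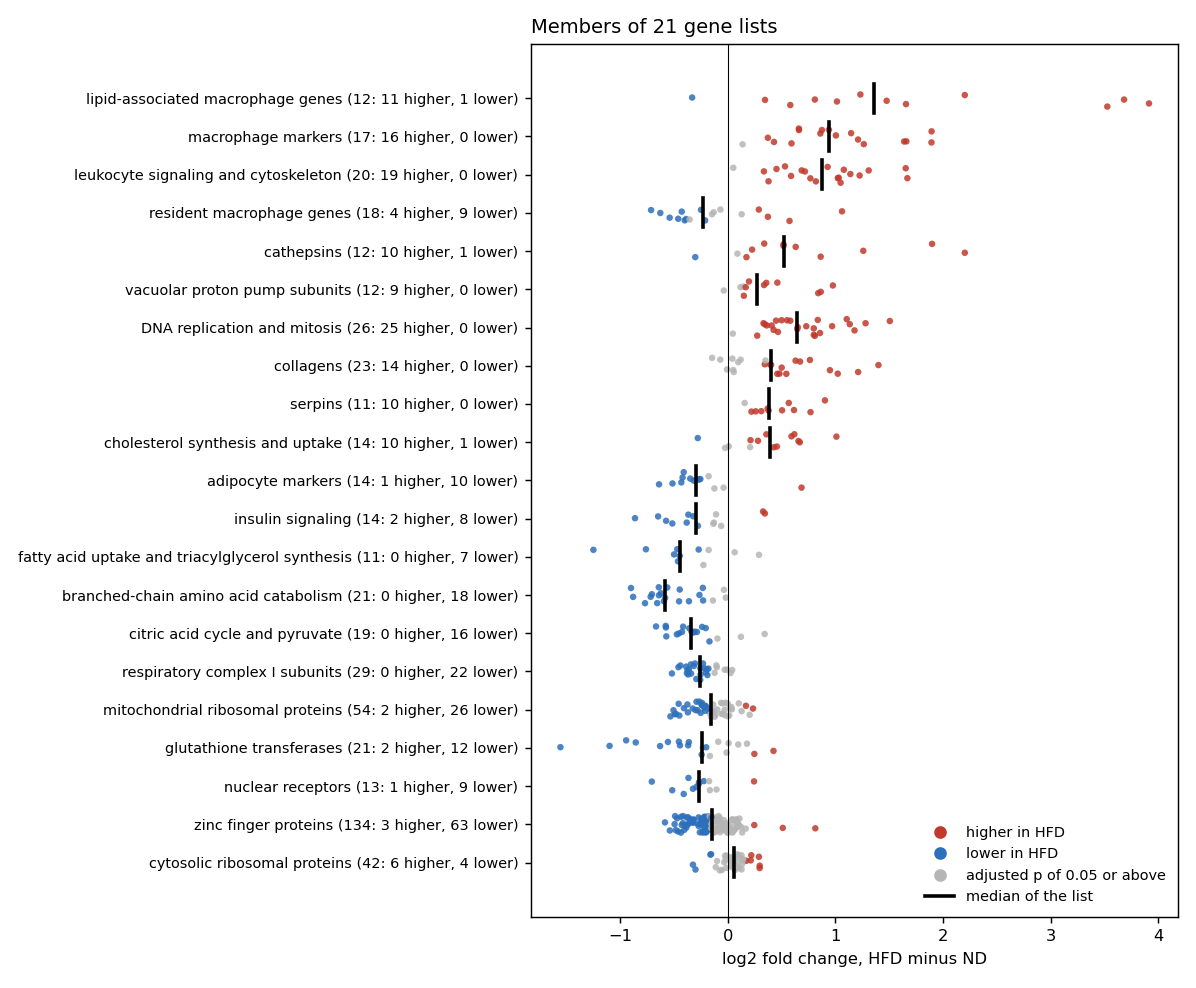
Each point is a measured gene of the list named at the left, with its log2 fold change, HFD minus ND, on the x axis, coloured red or blue where it was higher or lower at an adjusted p under 0.05, and a black bar at the list's median. The medians reach 1.35 in lipid-associated macrophage genes and -0.58 in branched-chain amino acid catabolism.

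Of 14 genes of cholesterol synthesis and uptake 10 were higher and 1 was lower, at a median of 0.39. Insig1, the sterol-regulated brake on this pathway, had 11.68, 12.10 and 11.74 in HFD, against 10.76, 10.58 and 11.16 in ND, a 2.01-fold difference. Hsd17b7 and Fdps, enzymes of the pathway, rose by 0.67 and 0.66, and Pmvk, a mevalonate pathway kinase, fell by 0.28. With median scaling of the arrays 7 of the 14 were higher, and leaving out single arrays gave 7 to 11. The rank product of the methods called 1 of them higher. The CCAAT box stood before 11 of 12 of these genes (91.7%), while the sterol element TCACCCCA was found before 1 (8.33%, against 1.19% over all). That element also stood before 2 of 19 leukocyte signaling genes (10.5%). Its other searched forms, CACCCCAC and TCACNCCAC, were found before 0 of the 12. CCAAT also stood before 14 of 17 genes of the unfolded protein response (82.4%), whose median was 0.01, before 13 of 19 branched-chain genes (68.4%), whose median was -0.58, and before 33.0% of the genes that rose at least 2-fold. The 120 bases before Hsd17b7 (chr1:169969206-169969325) and Msmo1, a sterol methyl oxidase (chr8:64733579-64733698), both on the minus strand, are printed with CCAAT or its complement in capitals, as the members with the largest rise that hold it there.
Hsd17b7: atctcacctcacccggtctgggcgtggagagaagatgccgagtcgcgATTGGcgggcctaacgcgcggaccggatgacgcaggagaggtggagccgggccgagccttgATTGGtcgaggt
Msmo1: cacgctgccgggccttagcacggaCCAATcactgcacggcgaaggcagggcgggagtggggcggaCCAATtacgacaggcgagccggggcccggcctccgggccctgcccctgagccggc

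Of 15 genes of fatty acid synthesis 2 were higher, 6 lower and 7 not called, at a median of -0.31 that ran between -0.46 and -0.06 without single arrays. Acacb, the mitochondrial acetyl-CoA carboxylase that restrains fatty acid oxidation, had 11.04, 11.06 and 11.32 in HFD and 12.14, 12.81 and 12.53 in ND, and Thrsp, a lipogenic nuclear protein, fell by 0.66. Fasn, the fatty acid synthase, had 8.79, 9.34 and 9.05 in HFD and 9.62, 8.89 and 9.86 in ND, so that its arrays overlapped and it was not called. Scd2, a stearoyl-CoA desaturase, rose by 1.25. For uptake of fatty acids and synthesis of triacylglycerol 7 of 11 genes were lower and none higher, at a median of -0.45. Pck1, which makes glycerol phosphate for triacylglycerol in fat, had 9.85, 9.93 and 10.35 in HFD, against 11.27, 11.27 and 11.33 in ND, and Gpat3, a glycerol phosphate acyltransferase, fell by 0.76. Of 15 genes of lipolysis and lipid droplets 8 were lower (53.3%) and 2 higher (13.3%), at a median of -0.16. Plin2, the coat protein of droplets in macrophages and other cells, rose by 0.86, whereas Plin1, the coat protein of adipocytes, fell by 0.32, the droplet-fusing Cidea by 0.83, and the hormone-sensitive lipase Lipe by 0.51.

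Transcripts of branched-chain amino acid breakdown were lower over nearly the whole pathway. Of 21 genes measured 18 were lower and none higher, at a median of -0.58, and 17 or 18 were lower without each of the HFD and ND arrays. Ivd, the dehydrogenase of leucine breakdown, had 12.14, 12.01 and 12.25 in HFD, against 13.03, 13.05 and 13.03 in ND. Bcat2, the aminotransferase that starts the pathway, had 10.79, 10.87 and 10.82 in HFD and 11.33, 12.11 and 11.69 in ND. Pccb, a subunit of propionyl-CoA carboxylase at its end, had 11.58, 11.47 and 11.67 in HFD and 12.32, 12.41 and 12.30 in ND. The groups did not overlap for any of these. The core subunits Bckdha, Bckdhb and Dbt of the branched-chain keto acid dehydrogenase fell by 0.64, 0.62 and 0.71, and both its kinase Bckdk and its phosphatase Ppm1k were lower, by 0.36 and 0.58. Genes that the pathway shares with ketone use, Oxct1 and Acat1, differed by -0.02 and -0.04 and were not called. Acat1 was dim, at 8.11 in HFD and 8.14 in ND.

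Mitochondrial genes were lower by smaller amounts. In the citric acid cycle and the entry of pyruvate 16 of 19 genes were lower and none higher, at a median of -0.34. The pyruvate dehydrogenase kinase Pdk2 and the pyruvate dehydrogenase subunit Pdha1 fell by 0.67 and 0.58, and Pcx, pyruvate carboxylase, by 0.57. Of 29 subunits of respiratory complex I 22 were lower and none higher, at a median of -0.26, and their mean level was 12.33 to 12.39 in HFD and 12.58 to 12.63 in ND. The fall was led by Ndufs7 at -0.52, while none of the 29 fell by 1.5-fold or more. Of 11 subunits of complexes II and III 8 were lower, of 10 of complex IV 5 were lower and 2 higher (3 lower without HFD replicate 1 or HFD replicate 3), and of 13 of the ATP synthase 6 were lower. Of 54 mitochondrial ribosomal proteins 26 were lower and 2 higher, at a median of -0.15. Cytosolic ribosomal proteins did not share this, since 4 of 42 were lower and 6 higher (2 lower without HFD replicate 1, 2 or 3 or ND replicate 2) at a median of 0.06, which turned to -0.01 with median scaling. In fatty acid oxidation 8 of 17 genes were lower and 1 higher, at a median of -0.12. The isomerase Eci1 fell by 0.63, and the gene that rose was Cpt1b, the muscle form of the carnitine transferase, by 0.84. Ppargc1a, a co-activator of mitochondrial genes, fell by 0.50.

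**Figure D4:**
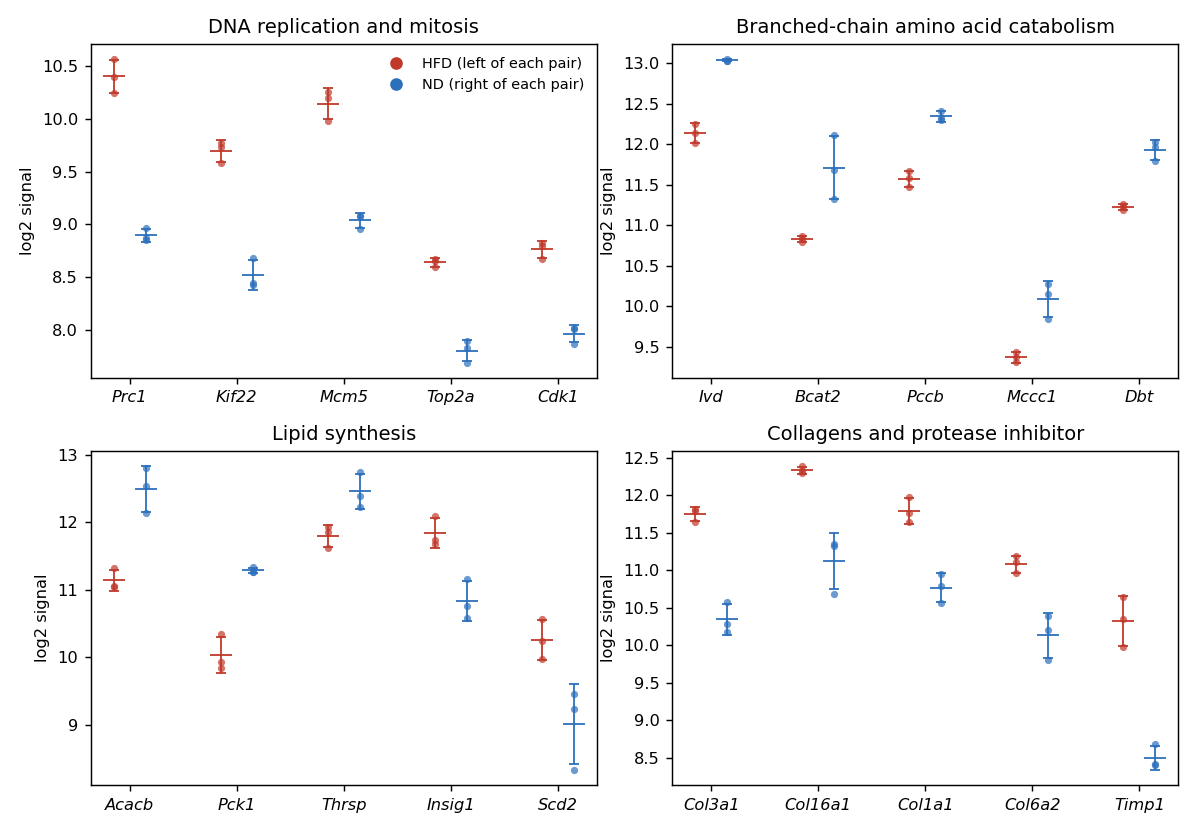
Log2 signal of single arrays (points, y axis) with the group mean and SD (bars, n = 3 arrays each) for 5 genes from each of 4 sets, HFD in red left of ND in blue. HFD lies above ND for the division and matrix genes and below ND for the branched-chain genes, and the lipid genes go both ways.

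Adipocyte and insulin genes were mostly lower. Of 14 adipocyte markers 10 were lower and 1 higher, at a median of -0.29, and their mean level was 11.96 to 12.12 in HFD and 12.22 to 12.32 in ND. Car3, Lipe and Retn, the resistin gene, fell by 0.64, 0.51 and 0.43, and Lep was the gene that rose. Adipoq, the adiponectin gene, had 15.75, 15.68 and 15.86 in HFD and 15.87, 15.86 and 15.94 in ND and was not called. Its signals stood near the top of the scale. Insulin signaling had 8 of 14 genes lower and 2 higher. Grb10, an adaptor that binds the insulin receptor, fell by 0.86, Irs2, a substrate of the receptor, by 0.65 and Insr, the receptor itself, by 0.57. Ptpn1, a phosphatase that opposes insulin, rose by 0.33. What these changes mean for the strength of insulin signaling was not tested. Of 10 glycogen genes 7 were lower, and the phosphorylases Pygl and Pygb fell by 1.06 and 0.85. With median scaling 5 of the glycogen genes were lower, and leaving out single HFD or ND arrays gave 5 or 6. Glycolysis, with the entry of glucose, had 6 of 15 genes higher and 3 lower, at a median of 0.14. The glucose transporter Slc2a3 fell by 1.23 and Slc2a4, the insulin-responsive one, by 0.26, while the widely expressed transporter Slc2a1 rose by 0.22 and the leukocyte hexokinase Hk3 by 2.07.

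Secreted products of fat other than leptin changed as well. Nrg4, a growth factor that brown and white fat release, had 11.65, 11.65 and 11.90 in HFD, against 12.68, 12.63 and 12.94 in ND, and Rbp4, the carrier of retinol, fell by 0.97. Sfrp5, a Wnt antagonist of adipocytes, rose by 0.87, and Mest and Bmp3, genes known to rise with fat expansion in mice, by 0.49 and 0.61. Hsd11b1, which regenerates active glucocorticoid, averaged 13.72 ± 0.22 in HFD and 14.90 ± 0.10 in ND (SD, n = 3 each). Vegfa, the vessel growth factor, had 12.28, 12.40 and 12.95 in HFD and 13.06, 13.28 and 13.18 in ND. Of 13 vascular endothelial genes 5 were lower (38.5%, against 27.7% over all genes) and none higher. The falls were led by Gpihbp1, the capillary anchor of lipoprotein lipase, at -0.50, and none reached 1.5-fold. Of 11 mesothelial genes 7 were lower and none higher, led by Upk3b, a uroplakin of the covering layer, at -0.69.

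Of 13 nuclear receptors 9 were lower and 1 higher. Rxra, the partner of many of them, fell by 0.71, Pparg, the master regulator of adipocytes, by 0.41, which turned to 0.04 when its dimmest probe was read, and Esrra rose by 0.24. Of 13 clock genes 6 were lower (46.2%, against 27.7% over all genes) and 1 higher (7.69%, against 25.2%). Per2 had 10.67, 10.72 and 11.05 in HFD, against 11.43, 11.69 and 11.44 in ND, and Nr1d1, the clock repressor also known as Rev-erb alpha, had 8.44, 8.55 and 8.54 in HFD and 9.14, 8.90 and 9.04 in ND. The activators Arntl and Npas2 differed by 0.06 each and were not called. Npas2 stood near background, at 7.88 in HFD and 7.83 in ND. Of 134 zinc finger genes with the root Zfp, many of which encode DNA-binding repressors, 63 were lower and 3 higher, at a median of -0.15. The lower share is 47.0%, against 27.7% over all genes. Single falls were small, with Zfp598 the largest at -0.58, and 39 to 56 were lower without single HFD or ND arrays, the lowest count being without HFD replicate 2. Zfp710 was the largest exception at 0.81, which reversed to -0.14 when its dimmer probe was read.

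Stress genes did not move in a single direction. Of 15 immediate early genes 6 were higher and 4 lower. The higher share lay above the 25.2% over all genes, while the lower share (26.7%) was near the 27.7% over all genes. Egr2 had 11.12, 11.21 and 10.80 in HFD, against 8.99, 8.70 and 8.80 in ND, Atf3 rose by 2.19 and Fos 2.82-fold, while Ier3, Klf4 and Zfp36 fell by 0.61, 0.56 and 0.35. Chac1, which degrades glutathione, had 11.25, 11.26 and 11.40 in HFD and 12.56, 12.70 and 12.35 in ND, and Asns, asparagine synthetase, had 12.09, 12.18 and 12.34 in HFD and 13.18, 13.40 and 13.11 in ND. Both belong to a list of 17 genes of the unfolded protein response. Of these 6 were lower (35.3%, against 27.7% over all genes) and 4 higher (23.5%, against 25.2%), or 7 higher without ND replicate 3. The chaperone Hspa5 differed by 0.15 and was not called, at a low signal of 8.36 in HFD and 8.20 in ND. Sesn2, another gene of nutrient stress, fell by 0.85. Of 21 glutathione transferases 12 were lower and 2 higher, with Gsta3 and Gstt1 at -1.10 and -0.94 after Gsta4. Among antioxidant genes Hmox1, the heme-degrading oxygenase, and Srxn1, a sulfiredoxin, rose by 1.02 and 0.78, while the superoxide dismutase Sod1 had 14.15, 14.08 and 14.16 in HFD and 14.55, 14.61 and 14.58 in ND.

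Solute carriers were called about as often as all genes, with 46 of 167 higher (27.5%, against 25.2% over all) and 37 lower (22.2%, against 27.7%). Slc15a3, a histidine and peptide transporter of phagocyte lysosomes, had 11.09, 11.18 and 10.74 in HFD, against 8.92, 8.77 and 8.73 in ND, and Slc1a3, a glutamate transporter, had 13.05, 12.84 and 13.37 in HFD and 14.07, 14.50 and 14.35 in ND. Of 23 potassium, calcium and sodium channels 6 were higher (26.1%) and 5 lower (21.7%), near the shares over all genes, at a median of -0.01. The potassium channel genes Kcnn4, Kcnab2 and Kcnk13 rose by 1.32, 1.31 and 1.24, while the calcium channel Cacna1d and the sodium channel Scn7a fell by 0.86 and 0.64. Of 37 Rab GTPases, which direct vesicle traffic, 11 were higher (29.7%, near the 25.2% over all genes) and 1 lower. Rab7b, a late endosome form of macrophages, rose by 1.62. Of 26 actin and tubulin genes 15 were higher and 3 lower. Pvalb, a calcium buffer of fast muscle and some neurons, had 10.11, 10.22 and 9.61 in HFD and 7.84, 7.75 and 7.92 in ND, whereas the fast muscle genes Mylpf and Actn3 differed by 0.09 and -0.13 and were not called, and Myl1 fell by 0.40.

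The luteolin arrays share the ND arrays with this comparison, and their values stand beside it with no test of the difference. LU minus ND was 3.30 for Mmp12, 2.88 for Trem2, 3.30 for Tph2, 0.66 for Prc1, -2.41 for Acsm3 and -0.41 for Ivd. In the same order HFD minus ND was 3.91, 3.68, 3.79, 1.51, -3.21 and -0.90. Other genes had the larger difference in LU, where LU minus ND was -2.31 for Alas2, -1.46 for Upk3b, -1.43 for Cd209b and -0.91 for Cd163, and HFD minus ND was -1.52, -0.69, -0.63 and -0.54.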

How the data were processed

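Epididymal fat RNA was measured on Illumina MouseWG-6 v2 BeadChips, 3 arrays each of HFD, ND and LU mice. The authors deposited the non-normalized intensity of 45281 probes with a detection p-value per probe and array, made with BeadStudio according to the methods. They also deposited log2 values after quantile normalization for 17128 of these probes, and how those probes were chosen is not given in the sources used here. The annotation given for that table named 14264 probes by 1 gene, 7 by several and 2857 by none.

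Intensities of the 9 arrays were quantile-normalized and log2-transformed with no background subtraction. The filter asked for detection (p under 0.05) on 3 or more arrays, which 20558 probes passed. One linear model over the 9 arrays was fitted in limma 3.58.1 (R 4.3.3), with moderated two-sided tests and Benjamini-Hochberg adjustment over the probes kept. A gene was read from its brightest named probe. Of 2671 genes with several probes, 24 had probes called in opposite directions. A gene at background on every array of a group has its fold change given as a bound against the lowest detected signal, computed on group means. The precision is limited by the number of arrays, and an exact permutation test of 3 against 3 could not go below p = 0.1. The fitting code was tested on simulated data.

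Replicate numbers did not pair the arrays (correlation of deviations 0.02, -0.08 and -0.00019). The slide of each array was not used here. Alternatives covered the background, scaling, filter, probe, test and single arrays. The members and lists were chosen with earlier results of these data known. The genes named were the 15 largest changes each way, the 6 largest bounds, the brightest genes with the largest changes, and up to 3 members each way of a list. Another 28 genes named here fell outside this rule and were chosen after their values were seen, mostly members that were not called or that fill out a pathway. Promoters came from RefSeq (GRCm38.p6) and matched 7033 of 8699 genes.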

Additional observations from a re-analysis of the deposited data

How the results depend on the processing

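The counts of 2188 genes higher and 2410 lower in HFD stayed within 1.5 times under another background correction, scaling, filter, probe choice or variance model, and with the authors' own normalized values. Median scaling gave 1778 higher and 2399 lower, which moved the share of higher calls to 42.6%. The replicate block gave 2111 and 2312, and as the numbers do not pair the arrays it is only a count. Leaving out single arrays gave 1824 to 2176 higher and 1903 to 2309 lower, the fewest without HFD replicate 2. The counts moved with the test. The rank product of the methods called 377 higher and 263 lower, all of them among the genes above, and the methods' t-test called 1229 and 1148 after Benjamini-Hochberg adjustment and 2059 and 2319 before it. A further condition of at least 1.5-fold left 591 and 268. Under the rank product small shifts of whole lists were mostly not called, with 0 of 29 complex I genes and 0 of 134 zinc finger genes lower, while 10 of 21 branched-chain genes were lower and 11 of 26 replication and mitosis genes higher. Cholesterol synthesis had 1 of 14 genes higher under the rank product and under the adjusted t-test. When the dimmest probe of a gene was read, Pparg reversed to 0.04 and Zfp710 to -0.14. The cause was not tested. Groups of 3 arrays are too small for a check of single outlying values.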
